A study of Homo sapiens with 12 samples.

Results

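The genes described here are 40 genes of homologous recombination and of the Fanconi anaemia pathway, out of 61466 genes in the expression table. They are listed by name and known function. The rule itself uses no measured value, but the list was drawn up with earlier results of these data known. Gene expression was measured by RNA sequencing of total RNA from Farage and SU-DHL-8 cells, both established cell lines of human diffuse large B cell lymphoma. The 4 groups were Farage cells given morusinol, Farage control cells, SU-DHL-8 cells given morusinol and SU-DHL-8 control cells, each sampled at 12 h with 3 libraries. Morusinol is a prenylated flavonoid from mulberry root bark. The genotype label reads WT for control cells and repeats the treatment for treated cells, so no engineered allele is named. The tissue label of all groups is lymph node. The sources used here give neither the dose nor whether the 3 libraries of a group came from separate cultures, so p-values measure only the spread between these libraries, which may be technical.

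Homologous recombination repairs a broken chromosome by copying the sister chromatid, and it works mainly in S and G2 phase, when a sister is present. Break ends are trimmed to single strands, the BRCA proteins load a recombinase onto them, the filament invades the sister, and the joined molecules are then separated by the BLM complex. The Fanconi pathway uses much of the same machinery for links between the strands of DNA: a core complex attaches ubiquitin to the FANCD2 and FANCI pair, which directs cutting of the link and its repair by recombination. The kinases ATM and ATR sense breaks and stalled forks and pass the signal to CHEK2 and CHEK1. In B cells some of these proteins, such as ATM and NBN, also act on breaks made during immunoglobulin class switching.

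Several members moved together, so their promoter windows were read. RefSeq (GRCh38.p14) gave a window for 35 of the 40 members, each running from 250 bases before 1 RefSeq start of the gene to 50 bases after it. NBN, WRN, RAD54B, RMI2 and FANCI had no entry. Each window was searched on both strands for 5 patterns: the E2F letters TTTCCCGC, TTTCGCGC, TTTGCCGC and TTTGGCGC counted as 1 pattern, the cell cycle homology letters TTTGAA, the letters CCAAT, the E-box CACGTG, and TGATGNAA. None of these patterns contains another. The windows of XRCC2, FANCD2, FANCC and UBE2T are printed 5′ to 3′ on the strand of the gene, with every match to any of the 5 patterns in capitals. XRCC2 and FANCD2 hold E2F letters and fell in both lines, and FANCC holds E2F letters and was called in neither line. UBE2T has no E2F letters, fell in both lines and had the strongest fall of the tested members in SU-DHL-8. In Farage the strongest fall was that of XRCC2.
XRCC2, chr7:152676092-152676391, minus strand: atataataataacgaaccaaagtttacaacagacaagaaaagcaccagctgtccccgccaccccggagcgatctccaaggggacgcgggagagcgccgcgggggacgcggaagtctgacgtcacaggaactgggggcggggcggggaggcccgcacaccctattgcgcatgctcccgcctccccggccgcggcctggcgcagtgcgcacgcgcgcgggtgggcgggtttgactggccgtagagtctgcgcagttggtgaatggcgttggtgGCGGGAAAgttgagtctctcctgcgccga
FANCD2, chr3:10026187-10026486, plus strand: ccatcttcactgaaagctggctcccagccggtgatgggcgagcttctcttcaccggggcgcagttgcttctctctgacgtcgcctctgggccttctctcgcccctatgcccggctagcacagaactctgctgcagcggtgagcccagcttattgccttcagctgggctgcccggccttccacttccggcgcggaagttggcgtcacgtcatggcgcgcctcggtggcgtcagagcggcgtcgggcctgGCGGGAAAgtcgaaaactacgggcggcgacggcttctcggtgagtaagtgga
FANCC, chr9:95317660-95317959, minus strand: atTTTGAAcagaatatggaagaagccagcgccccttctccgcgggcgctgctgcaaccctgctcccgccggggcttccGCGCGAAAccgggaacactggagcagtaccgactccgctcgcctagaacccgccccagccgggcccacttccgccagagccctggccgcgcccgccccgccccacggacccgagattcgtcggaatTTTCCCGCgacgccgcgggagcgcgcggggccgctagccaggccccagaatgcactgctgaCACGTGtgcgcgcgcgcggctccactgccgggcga
UBE2T, chr1:202341887-202342186, minus strand: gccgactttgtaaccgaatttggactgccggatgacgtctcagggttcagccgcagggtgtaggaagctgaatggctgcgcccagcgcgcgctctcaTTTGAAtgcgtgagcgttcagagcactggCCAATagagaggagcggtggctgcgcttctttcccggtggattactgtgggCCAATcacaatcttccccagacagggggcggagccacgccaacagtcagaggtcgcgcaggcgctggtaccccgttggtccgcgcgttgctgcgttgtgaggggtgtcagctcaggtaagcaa

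E2F letters stood in 6 of the 35 member windows (17.14%), against 3.31% of all 35116 RefSeq windows of the same length. They began at position 5 after the start in EXO1, 22 after it in XRCC2, at -172 in FANCA, at -172 and -46 in FANCC, at -2 in FANCD2 and at -7 in TOPBP1. Of these 6 genes, 5 fell in both lines under morusinol and FANCC did not pass the test in either, while 6 of the other 29 members with a window fell in both, FANCL among the 29 not being tested. Over all tested genes 11.1% fell in both lines. CCAAT stood in 16 windows (45.71%), against 34.61% of all windows, TTTGAA in 4 (11.43%) against 15.16%, and CACGTG in 3 (8.57%) against 7.26%. UBE2T, BRIP1, ATM and FANCC were the windows with TTTGAA, and TGATGNAA stood in 0 of the 35 against 3.62% of all. Members with CCAAT fell in both lines in 7 of 16 cases and those without it in 4 of 19, members with TTTGAA in 2 of 4 and those without it in 9 of 31, and members with CACGTG in 0 of 3 and those without it in 11 of 32. These counts are small and the patterns were not compared by a test. These are matches of letters only, and no binding was measured.

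The libraries expressed the defining genes of B cells. All 6 B lymphocyte markers were present, and their summed level was 613 to 660 FPKM in Farage morusinol libraries, 966 to 1021 FPKM in Farage control libraries, 230 to 238 FPKM in SU-DHL-8 morusinol libraries and 354 to 368 FPKM in SU-DHL-8 control libraries. Of the 6, 0 rose and 5 fell in Farage (median -0.66), and 2 rose and 4 fell in SU-DHL-8 (median -0.45). MS4A1 (CD20) averaged 92.9 ± 7.69 FPKM in Farage morusinol libraries and 356 ± 21.3 FPKM in Farage control libraries, a change of -1.93 (adjusted p = 5.18e-08). The part of these changes in those of the members was not tested. Here FPKM is fragments scaled by the length of the gene and the depth of the library. Summed markers of T and NK cells stayed at or below 2.64 FPKM, those of myeloid cells at or below 1.80 FPKM, and those of fibroblasts, endothelium and epithelium at or below 2.18 FPKM. Depth estimated from the table was 9.37 to 12.7 M fragments (M for mega) in Farage morusinol libraries, 16.6 to 19.0 M in Farage control libraries, 6.05 to 15.0 M in SU-DHL-8 morusinol libraries and 14.2 to 15.2 M in SU-DHL-8 control libraries. Morusinol libraries of Farage were thus all shallower than their controls, and the part of depth in the results was not tested. The correlation of log2 values between libraries was 0.964 to 0.980 within a group, 0.922 to 0.937 between groups of 1 line and 0.726 to 0.796 between lines, so no library stood apart from its group. Exons of 19 members overlap a gene on the opposite strand and those of 7 overlap a gene on the same strand, which matters because it is not known whether strand was used in counting.

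Under morusinol, members fell more often than they rose in both lines, and the fall was broader in SU-DHL-8. Differences are given as log2 fold changes of FPKM + 1, morusinol over control, with their standard error, and a gene was called at an adjusted p under 0.05 in limma over all 17574 genes tested. Of the 40 members, 39 passed the filter on low values and FANCL did not. In Farage 23 members were called, against 43.1% of all tested genes: 9 rose (23.1%), near the 21.9% of all tested genes called higher, and 14 fell (35.9%), against 21.2% of all genes. In SU-DHL-8 27 members were called, against 46.8%: 5 rose (12.8%), against 25.1% of all genes, and 22 fell (56.4%), against 21.6%. The median change of the members was -0.06 in Farage and -0.22 in SU-DHL-8, while that of all tested genes was -0.03 in Farage and 0.02 in SU-DHL-8. The sizes were moderate, with a median size among called members of 0.35 in Farage and 0.49 in SU-DHL-8. On the scale of FPKM + 1, UBE2T in SU-DHL-8 was the single member that fell by more than 1, against 2.86% of all genes there. In Farage 0 members did so, against 2.56% of all genes. These counts hold for this scale only. Ratios of mean FPKM, morusinol over control, were 0.410 for UBE2T, 0.471 for BRIP1, 0.488 for RAD54B and 0.493 for BLM in SU-DHL-8. For XRCC2 in Farage the ratio was 0.470.

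**Figure D1:**
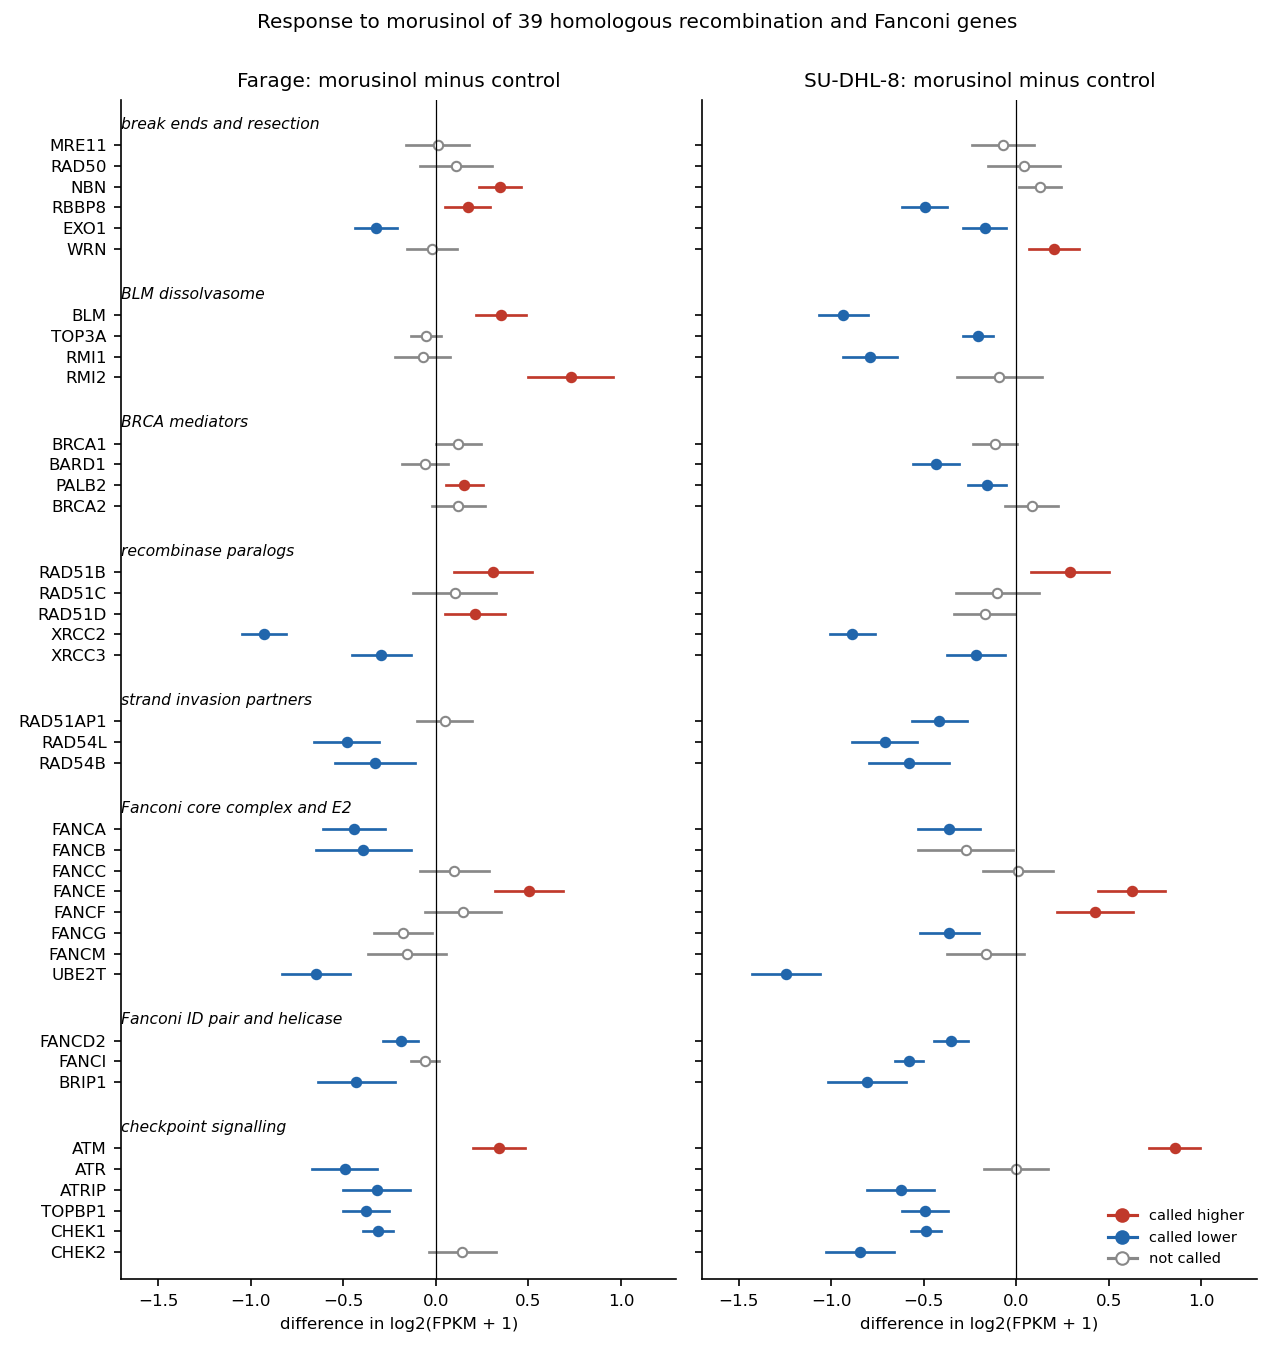
Log2 fold change of FPKM + 1, morusinol over control, for the 39 members tested, with Farage in the left panel and SU-DHL-8 in the right; points are estimates from limma, bars are 95% intervals, and filled points are called at an adjusted p under 0.05. Members are grouped by role, and 14 fell in Farage and 22 in SU-DHL-8.

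The counts were set against the ranges of the 3 libraries in each group. In Farage the morusinol libraries lay wholly above the controls for 9 of the 40 members and wholly below them for 16, against 25.8% and 25.3% of all tested genes. In SU-DHL-8 they lay wholly above for 6 members and wholly below for 26, against 29.2% and 24.9%. The Farage count of risen members was 5 when the low-value filter was removed, and also 5 without Farage control replicate 3. The SU-DHL-8 count of risen members was 2 when FPKM was rescaled to TPM, and 3 without SU-DHL-8 morusinol replicate 2 or without SU-DHL-8 morusinol replicate 3. Without the low-value filter RBBP8, PALB2, RAD51B and RAD51D in Farage, RAD51B and XRCC3 in SU-DHL-8, and the difference of responses of NBN, TOP3A, BRCA1 and CHEK1 missed the threshold, with adjusted p from 0.0548 to 0.115. Under protein-coding scaling EXO1, PALB2 and XRCC3 missed it in SU-DHL-8, with adjusted p from 0.128 to 0.197. With values rescaled to a common protein-coding sum the Farage median of the members was 0.01, with 10 members higher and 14 lower.

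12 members fell in both lines, a pattern that 11.1% of all tested genes had. They were EXO1, XRCC2, XRCC3, RAD54L, RAD54B, FANCA, UBE2T, FANCD2, BRIP1, ATRIP, TOPBP1 and CHEK1. RAD51B, FANCE and ATM rose in both lines, as did 11.5% of all genes. RBBP8, BLM and PALB2 rose in Farage and fell in SU-DHL-8, while 4.26% of all genes were called in opposite directions.

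Most S phase genes fell in both lines, while most genes of G2 and mitosis rose in Farage and fell in SU-DHL-8. Of 22 S phase and replication fork genes, 0 rose and 16 fell in Farage, with a median of -0.44, and 0 rose and 22 fell in SU-DHL-8, with a median of -1.02. MCM4, a subunit of the replicative helicase, changed by -1.27 in Farage (adjusted p = 1.38e-08) and by -2.04 in SU-DHL-8 (adjusted p = 4.19e-10). PCNA, the sliding clamp of DNA polymerases, had 129 ± 0.851 FPKM in Farage morusinol libraries and 237 ± 13.1 FPKM in Farage control libraries, and 196 ± 7.64 FPKM in SU-DHL-8 morusinol libraries and 614 ± 28.5 FPKM in SU-DHL-8 control libraries. It fell by 0.86 in Farage and by 1.64 in SU-DHL-8 on the log2 scale. Of 15 genes of G2 and mitosis, 11 rose and 3 fell in Farage, with a median of 0.19, whereas 0 rose and 14 fell in SU-DHL-8, with a median of -0.70. TPX2, a spindle assembly factor, rose by 0.50 in Farage (adjusted p = 5.20e-06) and changed by -0.61 in SU-DHL-8 (adjusted p = 7.45e-07). The lists are short and were set beside the members for description. The part of cell cycle position in the members' changes was not tested, and in such bulk samples fewer cells of a kind and less RNA per cell cannot be told apart.

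Among the genes that handle break ends, resection factors moved in different directions, and MRE11 and RAD50 were called in neither line. Of these 6 members, 2 rose and 1 fell in Farage, against 21.9% and 21.2% of all tested genes. In SU-DHL-8 1 rose and 2 fell, against 25.1% and 21.6%. Each role holds few genes, and no role was tested against other genes. RBBP8 (CtIP, which starts the trimming of break ends) had 27.4, 28.3 and 31.3 FPKM in Farage morusinol libraries, against 24.5, 26.7 and 25.6 FPKM in Farage control libraries. In SU-DHL-8 it had 25.9, 27.3 and 24.7 FPKM in morusinol libraries, against 37.5, 36.2 and 37.3 FPKM in control libraries. The Farage groups were separate, with morusinol above control, and so were the SU-DHL-8 groups, with morusinol below control. RBBP8 rose by 0.17 ± 0.0545 in Farage (adjusted p = 0.0265) and changed by -0.49 ± 0.0545 in SU-DHL-8 (adjusted p = 2.81e-05), and its responses differed by 0.67 ± 0.0771 (Farage minus SU-DHL-8, adjusted p = 0.000101). The rise in Farage was lost without Farage morusinol replicate 3, Farage control replicate 1 or Farage control replicate 3, with adjusted p up to 0.0921, and when Farage libraries were fitted alone (adjusted p = 0.0764).

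EXO1, the nuclease that lengthens the single-stranded tails, fell in both lines. It had 14.9, 17.0 and 16.1 FPKM in Farage morusinol libraries, against 21.1, 20.5 and 19.2 FPKM in Farage control libraries. SU-DHL-8 had 26.9, 27.0 and 25.3 FPKM in morusinol libraries, against 30.5, 29.4 and 29.6 FPKM in control libraries. No morusinol library reached a control library of its own line. The change was -0.32 ± 0.0518 in Farage (adjusted p = 0.000519) and -0.17 ± 0.0518 in SU-DHL-8 (adjusted p = 0.0194), the second being lost without SU-DHL-8 morusinol replicate 3 or SU-DHL-8 control replicate 1 (adjusted p up to 0.0753) and under protein-coding scaling (adjusted p = 0.197).

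NBN, the subunit that recruits ATM to breaks, was higher in morusinol libraries of Farage. It had 24.1, 25.5 and 27.0 FPKM in Farage morusinol libraries, against 19.5, 20.2 and 19.9 FPKM in Farage control libraries. All 3 Farage morusinol libraries were above the controls, a rise of 0.35 ± 0.0515 (adjusted p = 0.000317). In SU-DHL-8 NBN had 29.9, 30.1 and 30.8 FPKM in morusinol libraries, against 26.8, 29.8 and 26.4 FPKM in control libraries. These groups were separate by a narrow margin, and the change of 0.13 ± 0.0515 did not pass the test (adjusted p = 0.0671). It was 0.20 under protein-coding scaling, which was called (adjusted p = 0.0139), and 0.03 under TPM scaling (adjusted p = 0.882), and it was also called without SU-DHL-8 control replicate 2 or without Farage morusinol replicate 3. The responses of NBN differed by 0.22 ± 0.0728 (adjusted p = 0.0403), a call lost in 9 of 12 leave-one-out fits (adjusted p up to 0.0800). MRE11, the nuclease of the same complex, averaged 10.03 ± 0.739 FPKM in Farage morusinol libraries and 9.98 ± 1.21 FPKM in Farage control libraries, and 11.9 ± 0.456 FPKM in SU-DHL-8 morusinol libraries and 12.6 ± 0.511 FPKM in SU-DHL-8 control libraries, with changes of 0.01 in Farage and -0.07 in SU-DHL-8 that were not called. RAD50 changed by 0.11 in Farage and 0.04 in SU-DHL-8, neither called, and it shares 7784 of its 9771 exon bases with AC116366.3 on the same strand, so its level is uncertain. WRN, a helicase that acts on resected ends, rose by 0.20 ± 0.0609 in SU-DHL-8 (adjusted p = 0.0177), where it averaged 8.28 ± 0.475 FPKM in SU-DHL-8 morusinol libraries and 7.05 ± 0.307 FPKM in SU-DHL-8 control libraries. That call was lost without SU-DHL-8 morusinol replicate 2, SU-DHL-8 morusinol replicate 3 or SU-DHL-8 control replicate 3 (adjusted p up to 0.0650) and under TPM scaling (adjusted p = 0.278). In Farage WRN changed by -0.02 and was not called.

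The BLM complex, which unlinks joined chromosomes after repair, had the largest median difference of responses among the roles, 0.77 (Farage minus SU-DHL-8). Of its 4 members, 2 rose and 0 fell in Farage, against 21.9% and 21.2% of all tested genes. In SU-DHL-8 0 rose and 3 fell, against 25.1% and 21.6%. The difference of responses was called as higher for all 4, against 17.3% of all tested genes. BLM, the helicase that is lost in Bloom syndrome (chr15:90717327-90816165 on GRCh38), had 14.6, 15.2 and 16.2 FPKM in Farage morusinol libraries, against 11.6, 12.2 and 11.5 FPKM in Farage control libraries. The SU-DHL-8 values were 8.33, 7.88 and 7.34 FPKM in morusinol libraries, against 15.4, 17.2 and 15.2 FPKM in control libraries. Farage morusinol libraries were all above their controls, while SU-DHL-8 morusinol libraries were all far below theirs. BLM rose by 0.35 ± 0.0606 in Farage (adjusted p = 0.000841), changed by -0.93 ± 0.0606 in SU-DHL-8 (adjusted p = 5.22e-07), and had a difference of responses of 1.29 ± 0.0857 (adjusted p = 2.44e-06), the largest of the members.

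RMI1, the scaffold that joins BLM to its topoisomerase, had 12.5, 12.6 and 12.3 FPKM in Farage morusinol libraries, against 13.4, 14.1 and 12.0 FPKM in Farage control libraries. These Farage groups overlapped. SU-DHL-8 showed 12.1, 13.4 and 13.4 FPKM in morusinol libraries, against 24.3, 23.7 and 21.5 FPKM in control libraries. There the morusinol libraries were far below the controls. The change was -0.07 ± 0.0660 in Farage (adjusted p = 0.427, not called) and -0.79 ± 0.0660 in SU-DHL-8 (adjusted p = 3.44e-06), with a difference of 0.72 ± 0.0934 (adjusted p = 0.000220).

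RMI2, the small partner of RMI1, had 3.63, 3.09 and 3.92 FPKM in Farage morusinol libraries, against 2.02, 1.77 and 1.45 FPKM in Farage control libraries. Every Farage morusinol library was above every Farage control, from a low level. SU-DHL-8 had 11.03, 14.0 and 12.3 FPKM in morusinol libraries, against 12.6, 14.0 and 13.2 FPKM in control libraries, and those groups overlapped. RMI2 rose by 0.73 ± 0.103 in Farage (adjusted p = 0.000220), its change of -0.09 in SU-DHL-8 was not called, and the responses differed by 0.82 ± 0.145 (adjusted p = 0.00159). TOP3A, the topoisomerase of the complex, averaged 10.8 ± 0.286 FPKM in SU-DHL-8 morusinol libraries and 12.6 ± 0.212 FPKM in SU-DHL-8 control libraries, a change of -0.21 ± 0.0366 (adjusted p = 0.000823). Its change of -0.06 in Farage was not called. The difference of 0.15 for TOP3A was lost in 10 of 12 leave-one-out fits, with adjusted p up to 0.103.

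**Figure D2:**
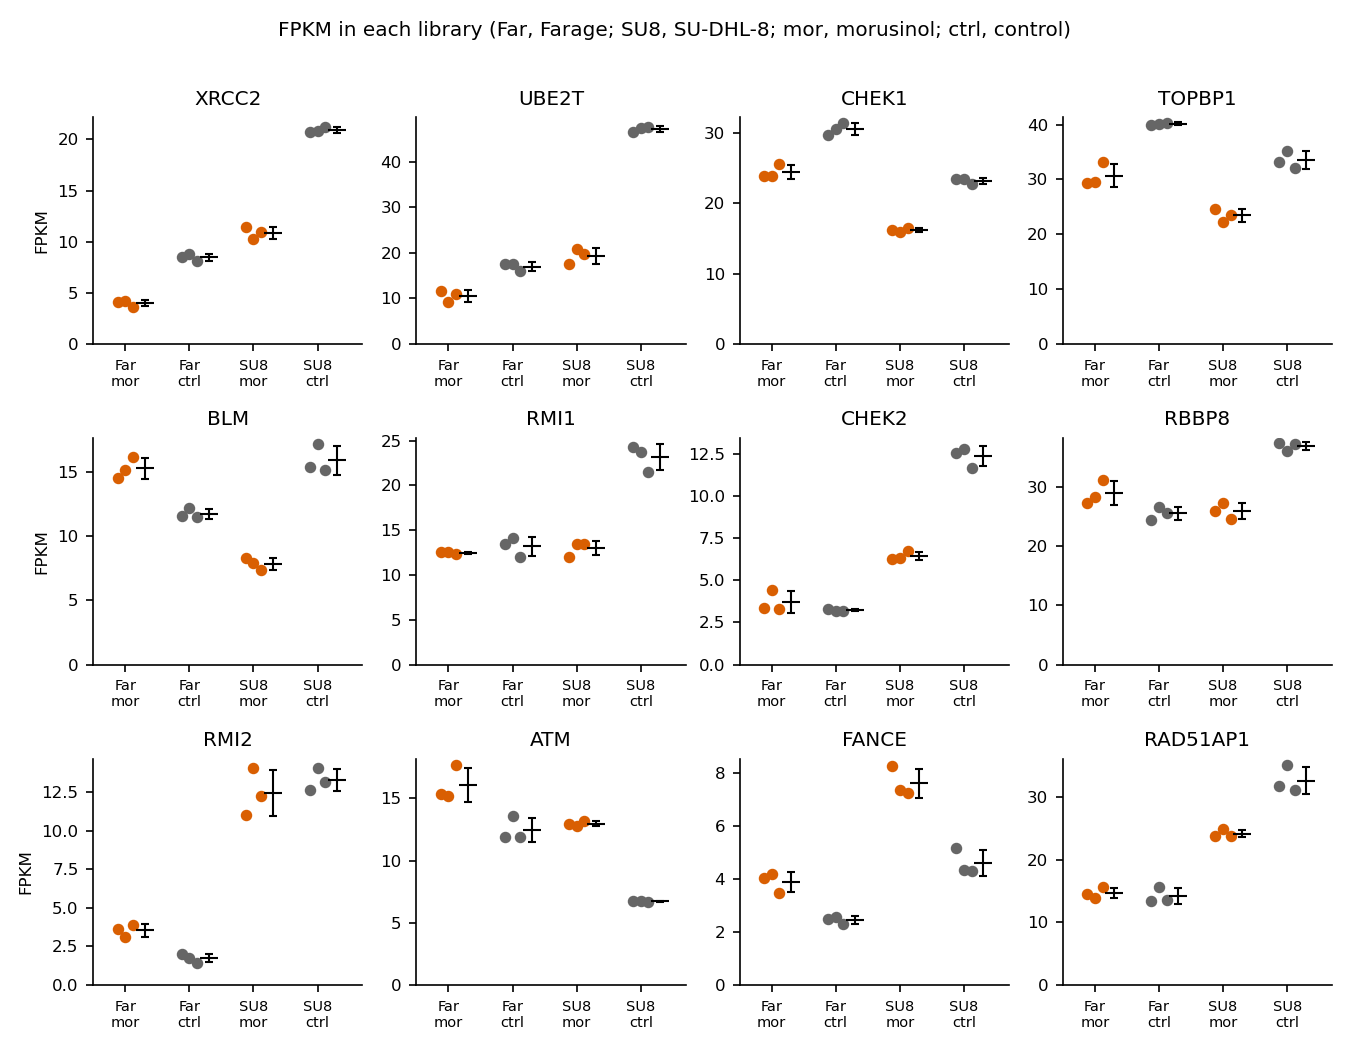
FPKM in each of the 12 libraries for 12 members, 1 panel per gene, each with its own linear vertical axis from 0; groups run from left to right as Farage morusinol, Farage control, SU-DHL-8 morusinol and SU-DHL-8 control, points are libraries and bars are the mean ± SD (n = 3). XRCC2 was lower with morusinol in both lines, whereas BLM was higher in Farage (15.3 against 11.8 FPKM) and lower in SU-DHL-8 (7.85 against 15.9 FPKM).

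The BRCA mediators load the recombinase onto single-stranded DNA. Of these 4 members, 1 rose in Farage and 0 fell, against 21.9% and 21.2% of all tested genes. In SU-DHL-8 0 rose and 2 fell, against 25.1% and 21.6%. BRCA1, the ubiquitin ligase subunit that favours recombination over end joining, had 13.9, 14.6 and 15.1 FPKM in Farage morusinol libraries, against 13.3, 14.1 and 12.5 FPKM in Farage control libraries. SU-DHL-8 showed 21.7, 23.6 and 24.1 FPKM in morusinol libraries, against 24.3, 26.0 and 25.2 FPKM in control libraries. The Farage groups overlapped, and the SU-DHL-8 morusinol libraries were all below the controls by a small margin. Neither change was called, at 0.12 ± 0.0543 in Farage (adjusted p = 0.0982) and -0.11 ± 0.0543 in SU-DHL-8 (adjusted p = 0.113). Their difference was 0.24 ± 0.0768 (adjusted p = 0.0358), which was lost in 7 of 12 leave-one-out fits (adjusted p up to 0.0805). The SU-DHL-8 change of BRCA1 was called as a fall under TPM scaling (-0.22, adjusted p = 0.0369) and median ratio scaling (-0.15, adjusted p = 0.0259). Its Farage change was called as a rise under protein-coding scaling (0.19, adjusted p = 0.037) and median ratio scaling (0.13, adjusted p = 0.0483).

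BARD1, the obligate partner of BRCA1, had 12.5, 12.8 and 12.1 FPKM in Farage morusinol libraries, against 12.7, 14.0 and 12.4 FPKM in Farage control libraries. SU-DHL-8 had 15.4, 14.3 and 14.6 FPKM in morusinol libraries, against 19.5, 21.8 and 19.8 FPKM in control libraries. Farage groups overlapped and SU-DHL-8 groups did not. BARD1 changed by -0.06 in Farage, which was not called, and by -0.43 ± 0.0564 in SU-DHL-8 (adjusted p = 9.37e-05), and the responses differed by 0.38 ± 0.0798 (adjusted p = 0.00455).

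PALB2, the bridge between BRCA1 and BRCA2, had 10.7, 10.5 and 10.95 FPKM in Farage morusinol libraries, against 10.1, 9.40 and 9.15 FPKM in Farage control libraries. For SU-DHL-8 they were 8.35, 8.84 and 8.12 FPKM in morusinol libraries, against 9.49, 9.88 and 9.27 FPKM in control libraries. All Farage morusinol libraries were above their controls and all SU-DHL-8 morusinol libraries were below theirs. The changes were small, 0.15 ± 0.0460 in Farage (adjusted p = 0.020) and -0.16 ± 0.0460 in SU-DHL-8 (adjusted p = 0.0144), with a difference of 0.32 ± 0.0650 (adjusted p = 0.00382). The Farage rise was lost without Farage morusinol replicate 3, Farage control replicate 2 or Farage control replicate 3 (adjusted p up to 0.0736), and with Farage libraries fitted alone (adjusted p = 0.0584). The SU-DHL-8 fall was lost without SU-DHL-8 morusinol replicate 3 or SU-DHL-8 control replicate 2 (adjusted p up to 0.0579). BRCA2, which carries the recombinase to the filament, averaged 10.4 ± 0.950 FPKM in Farage morusinol libraries and 9.43 ± 0.468 FPKM in Farage control libraries, and 13.9 ± 0.638 FPKM in SU-DHL-8 morusinol libraries and 13.1 ± 0.586 FPKM in SU-DHL-8 control libraries. Its changes of 0.12 in Farage and 0.08 in SU-DHL-8 were not called, with 95% intervals from -0.02 to 0.26 and from -0.06 to 0.23.

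The paralogs of the recombinase support its filament, and their members did not move as a group. Of the 5, 2 rose and 2 fell in Farage, against 21.9% and 21.2% of all tested genes. In SU-DHL-8 1 rose and 2 fell, against 25.1% and 21.6%. XRCC2 (chr7:152644779-152676165 on GRCh38) had 4.10, 4.22 and 3.65 FPKM in Farage morusinol libraries, against 8.55, 8.80 and 8.11 FPKM in Farage control libraries. In SU-DHL-8 it had 11.4, 10.2 and 10.96 FPKM in morusinol libraries, against 20.7, 20.9 and 21.3 FPKM in control libraries. All morusinol libraries were far below the controls of their own line, with no library between the groups. XRCC2 changed by -0.93 ± 0.0543 in Farage (adjusted p = 4.10e-07) and by -0.89 ± 0.0543 in SU-DHL-8 (adjusted p = 3.37e-07). The responses of the lines differed by -0.04, with a 95% interval from -0.21 to 0.13.

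RAD51B, which forms a complex with XRCC2 and other paralogs, had 4.48, 4.26 and 3.86 FPKM in Farage morusinol libraries, against 3.12, 3.65 and 2.84 FPKM in Farage control libraries. The SU-DHL-8 values were 3.48, 4.11 and 3.81 FPKM in morusinol libraries, against 2.71, 2.71 and 3.36 FPKM in control libraries. Morusinol libraries exceeded controls in both lines, by a narrow margin. RAD51B rose by 0.31 ± 0.0944 in Farage (adjusted p = 0.0223) and 0.29 ± 0.0944 in SU-DHL-8 (adjusted p = 0.0271). Each call was lost in 4 of 12 leave-one-out fits: in Farage without morusinol replicate 1, morusinol replicate 2, control replicate 1 or control replicate 3 (adjusted p up to 0.0835), and in SU-DHL-8 without morusinol replicate 2, morusinol replicate 3, control replicate 1 or control replicate 2 (adjusted p up to 0.0937). Without the low-value filter neither call passed, with adjusted p of 0.055 in Farage and 0.0672 in SU-DHL-8.

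XRCC3, which acts late on joined molecules, had 2.85, 2.72 and 2.95 FPKM in Farage morusinol libraries, against 4.16, 3.67 and 3.34 FPKM in Farage control libraries. For SU-DHL-8 they were 3.39, 3.23 and 3.73 FPKM in morusinol libraries, against 4.25, 4.02 and 4.23 FPKM in control libraries. The groups were separate in both lines, with morusinol lower. It changed by -0.29 ± 0.0707 in Farage (adjusted p = 0.00650) and by -0.22 ± 0.0707 in SU-DHL-8 (adjusted p = 0.0275), and the second call was lost in 4 of 12 leave-one-out fits (SU-DHL-8 morusinol replicate 1 or 2, SU-DHL-8 control replicate 1 or 3, adjusted p up to 0.0938). XRCC3 shares 5756 of its 7507 exon bases with KLC1 on the opposite strand, so reads of KLC1 may be included. RAD51D rose by 0.21 ± 0.0731 in Farage (adjusted p = 0.0397), a call lost in 8 of 12 leave-one-out fits (adjusted p up to 0.140) and when Farage was fitted alone (adjusted p = 0.122). It averaged 3.22 ± 0.255 FPKM in Farage morusinol libraries and 2.65 ± 0.261 FPKM in Farage control libraries. The change of -0.17 for RAD51D in SU-DHL-8 was not called (adjusted p = 0.0794), but was -0.30 and called with TPM scaling (adjusted p = 0.0243), and -0.20 and called with median ratio scaling (adjusted p = 0.0379). The responses of RAD51D differed by 0.38 ± 0.103 (adjusted p = 0.0158). RAD51D shares 1003 exon bases, summed over the readthrough gene RAD51L3-RFFL and RF00006, on the same strand. RAD51C averaged 6.16 ± 0.437 FPKM in Farage morusinol libraries and 5.68 ± 0.506 FPKM in Farage control libraries, and 3.96 ± 0.357 FPKM in SU-DHL-8 morusinol libraries and 4.35 ± 0.701 FPKM in SU-DHL-8 control libraries, and was called in neither line.

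The motor and partner genes of strand invasion fell in SU-DHL-8, all 3 of them, against 21.6% of all tested genes. In Farage 2 of the 3 fell, against 21.2%. RAD54L, a motor that helps the filament invade the sister, had 6.08, 5.18 and 5.14 FPKM in Farage morusinol libraries, against 8.41, 7.64 and 8.02 FPKM in Farage control libraries. In SU-DHL-8 it had 6.10, 5.65 and 4.81 FPKM in morusinol libraries, against 9.80, 9.40 and 9.74 FPKM in control libraries. Both lines had separate groups with morusinol lower, and the changes were -0.48 ± 0.0787 in Farage (adjusted p = 0.000587) and -0.71 ± 0.0787 in SU-DHL-8 (adjusted p = 2.87e-05). RAD54L shares 806 exon bases with LRRC41 on the opposite strand.

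RAD54B, its relative, was near the lower end of the members' levels. It had 0.832, 1.09 and 1.08 FPKM in Farage morusinol libraries, against 1.58, 1.55 and 1.41 FPKM in Farage control libraries. SU-DHL-8 had 0.763, 1.07 and 0.817 FPKM in morusinol libraries, against 1.84, 1.65 and 1.94 FPKM in control libraries. The groups did not overlap in either line. RAD54B changed by -0.33 ± 0.0980 in Farage (adjusted p = 0.0201) and by -0.58 ± 0.0980 in SU-DHL-8 (adjusted p = 0.000598). The Farage call was lost without Farage morusinol replicate 1, Farage control replicate 1 or Farage control replicate 2 (adjusted p up to 0.0729) and with Farage fitted alone (adjusted p = 0.0624). RAD54B shares 3139 of 5313 exon bases with FSBP on the same strand, so reads of the shared bases may come from either gene.

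RAD51AP1, which stimulates pairing with the sister, had 14.5, 14.0 and 15.6 FPKM in Farage morusinol libraries, against 13.4, 15.6 and 13.5 FPKM in Farage control libraries. These groups overlapped. SU-DHL-8 had 23.9, 24.9 and 23.8 FPKM in morusinol libraries, against 31.7, 35.1 and 31.2 FPKM in control libraries, with morusinol wholly below control. It changed by 0.05 in Farage, which was not called, and by -0.42 ± 0.0663 in SU-DHL-8 (adjusted p = 0.000402). The responses differed by 0.46 ± 0.0937 (adjusted p = 0.00346).

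In the Fanconi core complex the subunits went different ways, and the enzyme that delivers ubiquitin fell. Of 8 tested members of the core and its conjugating enzyme, 1 rose and 3 fell in Farage, against 21.9% and 21.2% of all tested genes. In SU-DHL-8 2 rose and 3 fell, against 25.1% and 21.6%. UBE2T, the conjugating enzyme that passes ubiquitin to FANCD2 (chr1:202331657-202341980 on GRCh38), had 11.6, 9.14 and 10.9 FPKM in Farage morusinol libraries, against 17.5, 17.6 and 16.0 FPKM in Farage control libraries. The SU-DHL-8 values were 17.4, 20.7 and 19.8 FPKM in morusinol libraries, against 46.5, 47.5 and 47.5 FPKM in control libraries. Its control level in SU-DHL-8 was the highest group mean among the members, and every morusinol library of that line was under 21 FPKM. UBE2T changed by -0.65 ± 0.0822 in Farage (adjusted p = 0.000104) and by -1.25 ± 0.0822 in SU-DHL-8 (adjusted p = 5.94e-07). The responses differed by 0.60 ± 0.116 (adjusted p = 0.00270), the fall being smaller in Farage.

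FANCA, a large core subunit bound by FANCG, had 7.55, 6.41 and 6.75 FPKM in Farage morusinol libraries, against 9.97, 10.5 and 8.80 FPKM in Farage control libraries. SU-DHL-8 had 4.24, 4.53 and 4.598 FPKM in morusinol libraries, against 6.21, 5.55 and 6.36 FPKM in control libraries. All morusinol libraries were below all controls of the same line. It changed by -0.44 ± 0.0752 in Farage (adjusted p = 0.000757) and -0.37 ± 0.0752 in SU-DHL-8 (adjusted p = 0.00218). FANCA shares 2302 of 9736 exon bases with ZNF276 on the opposite strand.

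FANCE, the subunit that binds FANCD2, rose in both lines. It had 4.04, 4.20 and 3.46 FPKM in Farage morusinol libraries, against 2.49, 2.57 and 2.29 FPKM in Farage control libraries. SU-DHL-8 had 8.27, 7.36 and 7.28 FPKM in morusinol libraries, against 5.19, 4.34 and 4.32 FPKM in control libraries. Every morusinol library was above every control of the same line. The rise was 0.50 ± 0.0820 in Farage (adjusted p = 0.000583) and 0.62 ± 0.0820 in SU-DHL-8 (adjusted p = 0.000102), and the responses differed by -0.12, with a 95% interval from -0.38 to 0.14.

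FANCF, an adaptor of the core, averaged 10.2 ± 0.381 FPKM in SU-DHL-8 morusinol libraries and 7.37 ± 0.877 FPKM in SU-DHL-8 control libraries and rose by 0.43 ± 0.0922 there (adjusted p = 0.00307), which did not pass under TPM scaling (adjusted p = 0.0527). In Farage its change of 0.15 was not called. FANCG, which binds FANCA, averaged 5.91 ± 0.273 FPKM in SU-DHL-8 morusinol libraries and 7.89 ± 0.557 FPKM in SU-DHL-8 control libraries, a change of -0.36 ± 0.0708 (adjusted p = 0.00160), and its change of -0.18 in Farage was not called. FANCB, the scaffold of the ligase module, averaged 1.18 ± 0.341 FPKM in Farage morusinol libraries and 1.84 ± 0.0909 FPKM in Farage control libraries. It changed by -0.39 ± 0.115 there (adjusted p = 0.0189), a call lost without Farage morusinol replicate 1, Farage morusinol replicate 2 or Farage control replicate 2 (adjusted p up to 0.0711) and with Farage fitted alone (adjusted p = 0.0714). In SU-DHL-8 FANCB averaged 1.66 ± 0.254 FPKM in morusinol libraries and 2.20 ± 0.104 FPKM in control libraries. Its change of -0.27 there was not called (adjusted p = 0.0781). That change was called with median ratio scaling (adjusted p = 0.04985) and without Farage morusinol replicate 3. The responses of FANCB differed by -0.12, which was not called. FANCC and FANCM, a subunit next to FANCE and the translocase that brings the core to DNA, were called in neither line. FANCC averaged 1.45 ± 0.161 FPKM in Farage morusinol libraries and 1.29 ± 0.0809 FPKM in Farage control libraries, and 1.86 ± 0.154 FPKM in SU-DHL-8 morusinol libraries and 1.84 ± 0.140 FPKM in SU-DHL-8 control libraries. FANCM averaged 2.47 ± 0.323 FPKM in Farage morusinol libraries and 2.86 ± 0.224 FPKM in Farage control libraries, and 2.08 ± 0.162 FPKM in SU-DHL-8 morusinol libraries and 2.46 ± 0.323 FPKM in SU-DHL-8 control libraries.

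FANCL is the ligase subunit itself, and it failed the filter of at least 1 FPKM in at least 3 libraries. It had 0.534, 0.527 and 0.547 FPKM in Farage morusinol libraries, against 0.683, 0.832 and 0.733 FPKM in Farage control libraries. SU-DHL-8 had 0.469, 0.522 and 0.513 FPKM in morusinol libraries, against 0.734, 0.795 and 0.758 FPKM in control libraries. The morusinol libraries were below the controls in both lines, at an estimated 7.6 to 37.3 fragments per library. It was tested only where the filter let it in. With no filter its changes were -0.19 in Farage (adjusted p = 0.134) and -0.23 in SU-DHL-8 (adjusted p = 0.0635), and with TPM scaling they were -0.30 in Farage (adjusted p = 0.0977) and -0.43 in SU-DHL-8 (adjusted p = 0.0197), the last being called as a fall.

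The ubiquitinated pair and the helicase fell in SU-DHL-8, all 3 of them, against 21.6% of all tested genes. In Farage 2 of the 3 fell, against 21.2%. FANCD2, which is clamped onto DNA when ubiquitinated (chr3:10026414-10101930 on GRCh38), had 8.79, 8.93 and 8.26 FPKM in Farage morusinol libraries, against 10.5, 9.82 and 9.74 FPKM in Farage control libraries. For SU-DHL-8 they were 9.80, 9.37 and 9.90 FPKM in morusinol libraries, against 12.8, 12.6 and 12.6 FPKM in control libraries. The groups were separate and narrow in both lines. FANCD2 changed by -0.19 ± 0.0421 in Farage (adjusted p = 0.00396) and by -0.35 ± 0.0421 in SU-DHL-8 (adjusted p = 4.86e-05). The difference of 0.16 missed the threshold (adjusted p = 0.0584) and passed it at 0.28 with TPM scaling (adjusted p = 0.0381) and at 0.21 with median ratio scaling (adjusted p = 0.0312).

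FANCI, its partner, had 9.72, 9.56 and 9.45 FPKM in Farage morusinol libraries, against 9.95, 10.1 and 9.99 FPKM in Farage control libraries. These groups were separate too, but by less than 1 FPKM. SU-DHL-8 had 9.40, 9.08 and 9.66 FPKM in morusinol libraries, against 14.5, 14.8 and 14.3 FPKM in control libraries, with a clear gap. The change of -0.06 ± 0.0336 for FANCI in Farage was not called (adjusted p = 0.183), while that in SU-DHL-8 was -0.58 ± 0.0336 (adjusted p = 2.20e-07). The difference of responses was 0.52 ± 0.0475 (adjusted p = 2.06e-05). The members of a pair that works as a complex thus had unequal calls in Farage, although the difference between the genes themselves was not tested.

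BRIP1, the BRCA1-associated helicase, had 3.73, 4.31 and 4.91 FPKM in Farage morusinol libraries, against 5.79, 6.94 and 5.71 FPKM in Farage control libraries. SU-DHL-8 had 1.79, 2.11 and 2.10 FPKM in morusinol libraries, against 4.12, 4.53 and 4.10 FPKM in control libraries. No morusinol library reached a control of its line. It changed by -0.43 ± 0.0944 in Farage (adjusted p = 0.00394) and by -0.81 ± 0.0944 in SU-DHL-8 (adjusted p = 4.31e-05). The difference of 0.38 ± 0.134 for BRIP1 missed the threshold (adjusted p = 0.0506). It passed under TPM scaling (adjusted p = 0.0297) and median ratio scaling (adjusted p = 0.0271). It also passed with the filter of 5 FPKM (adjusted p = 0.0321) and with 0.1 added in place of 1 (adjusted p = 0.0290).

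Among the signalling genes ATM rose in both lines, while ATRIP, TOPBP1 and CHEK1 fell in both. Of these 6 members, 1 rose and 4 fell in each line, and the 4 that fell were not the same genes in both. Over all tested genes 21.9% rose and 21.2% fell in Farage, and 25.1% rose and 21.6% fell in SU-DHL-8. ATM, the kinase activated by double-strand breaks (chr11:108222484-108369102 on GRCh38), had 15.4, 15.2 and 17.6 FPKM in Farage morusinol libraries, against 11.9, 13.6 and 11.9 FPKM in Farage control libraries. In SU-DHL-8 it had 12.9, 12.8 and 13.2 FPKM in morusinol libraries, against 6.72, 6.71 and 6.71 FPKM in control libraries. The SU-DHL-8 controls were almost identical and all morusinol libraries of either line were above their controls. ATM rose by 0.34 ± 0.0624 in Farage (adjusted p = 0.00124) and 0.86 ± 0.0624 in SU-DHL-8 (adjusted p = 1.24e-06), and the responses differed by -0.51 ± 0.0882 (adjusted p = 0.00129), the rise being smaller in Farage.

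CHEK1, the kinase that ATR activates, had 23.8, 23.8 and 25.5 FPKM in Farage morusinol libraries, against 29.7, 30.6 and 31.4 FPKM in Farage control libraries. SU-DHL-8 had 16.2, 16.0 and 16.5 FPKM in morusinol libraries, against 23.4, 23.5 and 22.7 FPKM in control libraries. Both lines showed separate groups with morusinol lower. It changed by -0.31 ± 0.0373 in Farage (adjusted p = 6.31e-05) and by -0.49 ± 0.0373 in SU-DHL-8 (adjusted p = 1.67e-06). The difference of 0.18 ± 0.0528 (adjusted p = 0.0257) was lost without SU-DHL-8 morusinol replicate 2, SU-DHL-8 control replicate 1, SU-DHL-8 control replicate 2 or Farage control replicate 1 (adjusted p up to 0.0597).

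CHEK2, the kinase downstream of ATM, had 3.37, 4.43 and 3.29 FPKM in Farage morusinol libraries, against 3.32, 3.20 and 3.17 FPKM in Farage control libraries. The Farage groups overlapped. SU-DHL-8 had 6.26, 6.32 and 6.71 FPKM in morusinol libraries, against 12.6, 12.8 and 11.7 FPKM in control libraries, where morusinol libraries were all far below control. CHEK2 changed by 0.14 ± 0.0821 in Farage, which was not called (adjusted p = 0.195), and by -0.84 ± 0.0821 in SU-DHL-8 (adjusted p = 1.08e-05). The responses differed by 0.99 ± 0.116 (adjusted p = 0.000112).

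TOPBP1, which switches on ATR, had 29.4, 29.5 and 33.2 FPKM in Farage morusinol libraries, against 39.9, 40.2 and 40.4 FPKM in Farage control libraries. SU-DHL-8 had 24.6, 22.2 and 23.6 FPKM in morusinol libraries, against 33.2, 35.3 and 32.0 FPKM in control libraries. All morusinol libraries were below all controls of their line, with changes of -0.38 ± 0.0557 in Farage (adjusted p = 0.000289) and -0.50 ± 0.0557 in SU-DHL-8 (adjusted p = 3.23e-05). ATR averaged 4.39 ± 0.441 FPKM in Farage morusinol libraries and 6.58 ± 0.398 FPKM in Farage control libraries, a change of -0.49 ± 0.0783 (adjusted p = 0.000492), and 6.42 ± 0.328 FPKM in SU-DHL-8 morusinol libraries and 6.45 ± 0.637 FPKM in SU-DHL-8 control libraries, where it was not called. The difference of -0.49 ± 0.111 (adjusted p = 0.00639) for ATR did not pass under TPM scaling (adjusted p = 0.0694), and ATR shares 2048 of 12496 exon bases with AC109992.1 on the opposite strand. ATRIP, the partner that brings ATR to single-stranded DNA, averaged 2.68 ± 0.0586 FPKM in Farage morusinol libraries and 3.59 ± 0.236 FPKM in Farage control libraries, and 3.49 ± 0.513 FPKM in SU-DHL-8 morusinol libraries and 5.89 ± 0.323 FPKM in SU-DHL-8 control libraries, with changes of -0.32 ± 0.0815 in Farage (adjusted p = 0.00920) and -0.62 ± 0.0815 in SU-DHL-8 (adjusted p = 9.62e-05). ATRIP shares 1515 of 5431 exon bases with TREX1 on the same strand.

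The difference of the responses, Farage minus SU-DHL-8, was tested directly as an interaction. It was called for 17 members: 15 were higher in that contrast (38.5%), against 17.3% of all tested genes, and 2 were lower (5.13%), against 17.6%. By more than 1 on the scale of FPKM + 1, 1 member was higher (BLM), against 2.57% of all genes, and 0 were lower, against 3.91%. That count too holds for this scale only. Ratios of mean FPKM, morusinol over control, were 1.30 in Farage and 0.493 in SU-DHL-8 for BLM. They were 2.03 in Farage and 0.937 in SU-DHL-8 for RMI2, and 1.15 and 0.521 for CHEK2. The median over the members was 0.18, while that of all tested genes was -0.07. The 15 were NBN, RBBP8, BLM, TOP3A, RMI1, RMI2, BRCA1, BARD1, PALB2, RAD51D, RAD51AP1, UBE2T, FANCI, CHEK1 and CHEK2, and the 2 were ATM and ATR. Of the genes called in this contrast 49.6% were higher with the deposited scaling and 60.2% with TPM scaling, and the members then had 17 higher and 1 lower. The S phase list had 16 of 22 higher and 0 lower in the same contrast (median 0.59), and the list of G2 and mitosis had 14 of 15 higher and 0 lower (median 0.89). The 36 other genes of recombination and the Fanconi pathway had 9 higher and 7 lower (median -0.01). The S phase list and the list of G2 and mitosis went the same way as most called members. The part of these lists in the difference was not tested.

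The other repair lists give the setting. For comparison, 21.9% of all tested genes rose and 21.2% fell in Farage, and 25.1% rose and 21.6% fell in SU-DHL-8. Of 36 other genes of recombination and the Fanconi pathway, 3 rose and 15 fell in Farage (median -0.13), and 10 rose and 15 fell in SU-DHL-8 (median -0.13). DNA2, a nuclease and helicase of resection, changed by -0.72 in Farage (adjusted p = 6.18e-06) and -1.05 in SU-DHL-8 (adjusted p = 2.62e-07). MCM8, a helicase of repair synthesis, changed by -0.78 in Farage and -0.79 in SU-DHL-8, both called. BABAM2, of the same list, rose by 0.70 in Farage (adjusted p = 1.76e-07) and 0.27 in SU-DHL-8 (adjusted p = 0.00014). Of 10 end joining genes 1 rose and 5 fell in Farage, and 2 rose and 6 fell in SU-DHL-8. XRCC5 (Ku80, which caps broken ends) changed by -0.86 in Farage (adjusted p = 1.01e-07) and -0.85 in SU-DHL-8 (adjusted p = 6.76e-08).

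Of 12 genes of the chromatin response and end protection, 2 rose and 4 fell in Farage, and 1 rose and 7 fell in SU-DHL-8. H2AX, the histone that marks breaks when phosphorylated, changed by -0.94 in Farage and -0.78 in SU-DHL-8, both called. TP53BP1, of the same list, rose by 0.44 in Farage (adjusted p = 1.53e-05) and 0.20 in SU-DHL-8 (adjusted p = 0.00311). Of 10 genes of the checkpoint clamp and fork protection, 5 rose and 4 fell in Farage (median -0.03), and 1 rose and 7 fell in SU-DHL-8 (median -0.70). CLSPN, the adaptor through which ATR reaches CHEK1, changed by -0.30 in Farage (adjusted p = 0.00308) and -1.57 in SU-DHL-8 (adjusted p = 1.72e-08). Among 7 mismatch repair genes 1 rose and 3 fell in Farage, and 2 rose and 4 fell in SU-DHL-8.

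Of 18 base excision genes 6 rose and 6 fell in Farage, and 7 rose and 6 fell in SU-DHL-8. UNG, the glycosylase that removes uracil, was among the fallers, with -1.18 in Farage (adjusted p = 3.45e-07) and -2.09 in SU-DHL-8 (adjusted p = 4.24e-09). Of 14 nucleotide excision genes 3 rose and 2 fell in Farage, and 6 rose and 4 fell in SU-DHL-8. Of 11 genes of translesion synthesis and damage tolerance 3 rose and 1 fell in Farage, and 4 rose and 2 fell in SU-DHL-8. PRIMPOL, which restarts synthesis past a lesion, rose by 0.53 in Farage (adjusted p = 0.000787) and 0.74 in SU-DHL-8 (adjusted p = 5.81e-05). All these lists are described by their counts, with no test of a list against other genes.

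**Figure D3:**
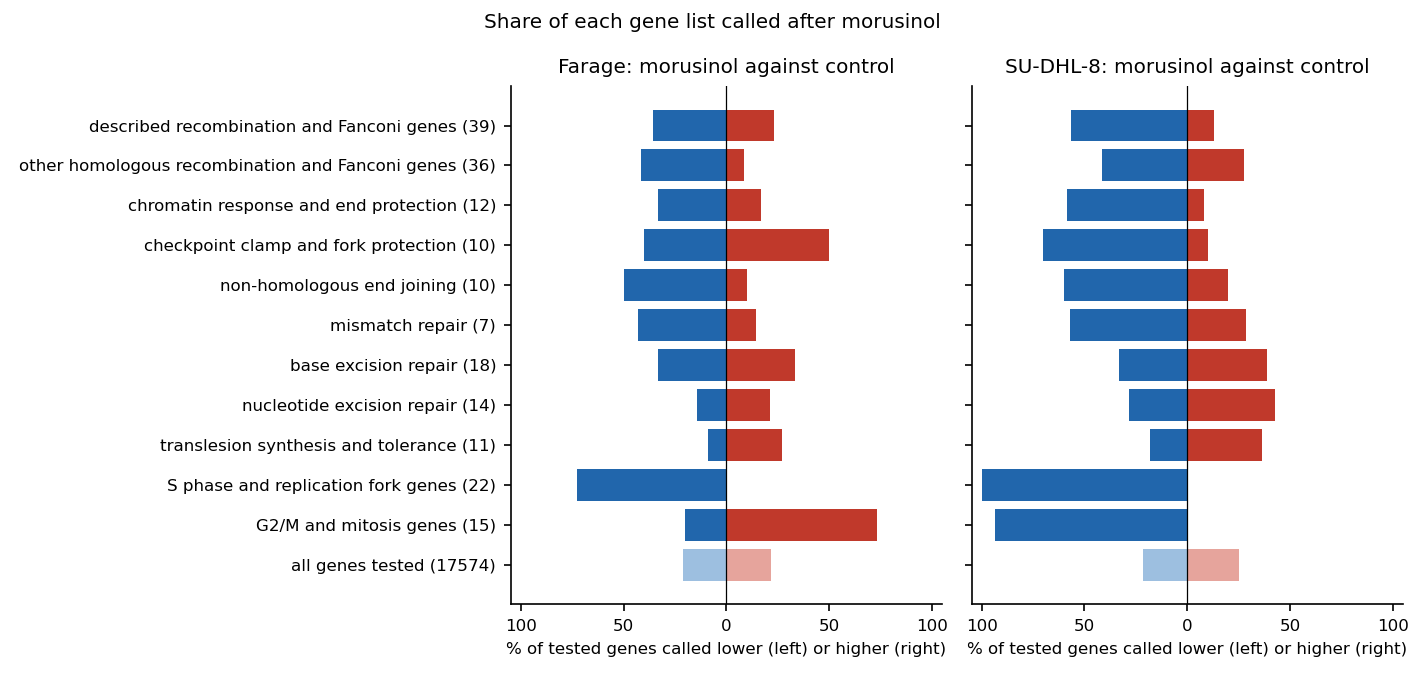
Share of tested genes called higher or lower under morusinol, in percent, for the members, for the other repair and cell cycle lists and for all genes tested, with Farage in the left panel and SU-DHL-8 in the right. The share called lower among the members was 35.9% in Farage and 56.4% in SU-DHL-8, against 21.2% and 21.6% of all tested genes.

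Without morusinol the lines already differed in these genes. Farage controls against SU-DHL-8 controls had 31 members called, against 64.1% of all genes, with 7 higher (17.9%), against 34.5% of all tested genes, and 24 lower (61.5%), against 29.6%. The ranges of the control libraries did not overlap for 33 of the 40 members, with Farage above for 7 and below for 26, against 37.4% and 32.1% of all genes. The median change of the members was -0.31. That of all genes was 0.08 with the deposited scaling and 0.24 with TPM scaling, under which the members' median was -0.23, with 7 higher and 21 lower. With TPM scaling TOP3A, RAD51D and RAD54L lost their calls as lower (adjusted p of 0.248, 0.0699 and 0.176), and RAD54L also lost it under protein-coding scaling (adjusted p = 0.0581). The S phase list had 3 of 22 higher and 17 lower in Farage controls, and the list of G2 and mitosis had 1 of 15 higher and 14 lower.

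6 members were lower by more than 1 in Farage controls, which 8.26% of all genes were. RMI2 had 2.02, 1.77 and 1.45 FPKM in Farage control libraries and 12.6, 14.0 and 13.2 FPKM in SU-DHL-8 control libraries, with a change of -2.38 ± 0.103 (adjusted p = 6.44e-09). CHEK2 had 3.32, 3.20 and 3.17 FPKM in Farage control libraries and 12.6, 12.8 and 11.7 FPKM in SU-DHL-8 control libraries, with a change of -1.66 ± 0.0821 (adjusted p = 1.97e-08). UBE2T, XRCC2, RAD51AP1 and FANCF were the others, at -1.42, -1.21, -1.15 and -1.03. The control libraries of these genes did not overlap between the lines.

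BRCA1 had 13.3, 14.1 and 12.5 FPKM in Farage control libraries and 24.3, 26.0 and 25.2 FPKM in SU-DHL-8 control libraries, a change of -0.87 ± 0.0543 (adjusted p = 1.26e-07). ATM ran the other way, with 11.9, 13.6 and 11.9 FPKM in Farage control libraries and 6.72, 6.71 and 6.71 FPKM in SU-DHL-8 control libraries, and was higher in Farage controls by 0.80 ± 0.0624 (adjusted p = 8.18e-07). FANCA, WRN, BRIP1, CHEK1, RAD51C and TOPBP1 were the other members higher in Farage controls, at 0.61, 0.54, 0.44, 0.38, 0.33 and 0.26. The call of RAD51C was lost without SU-DHL-8 control replicate 3 or Farage control replicate 2 (adjusted p up to 0.0602), and that of RAD54L, at -0.24, without SU-DHL-8 control replicate 1, SU-DHL-8 control replicate 3 or Farage control replicate 2 (adjusted p up to 0.0727).

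**Figure D4:**
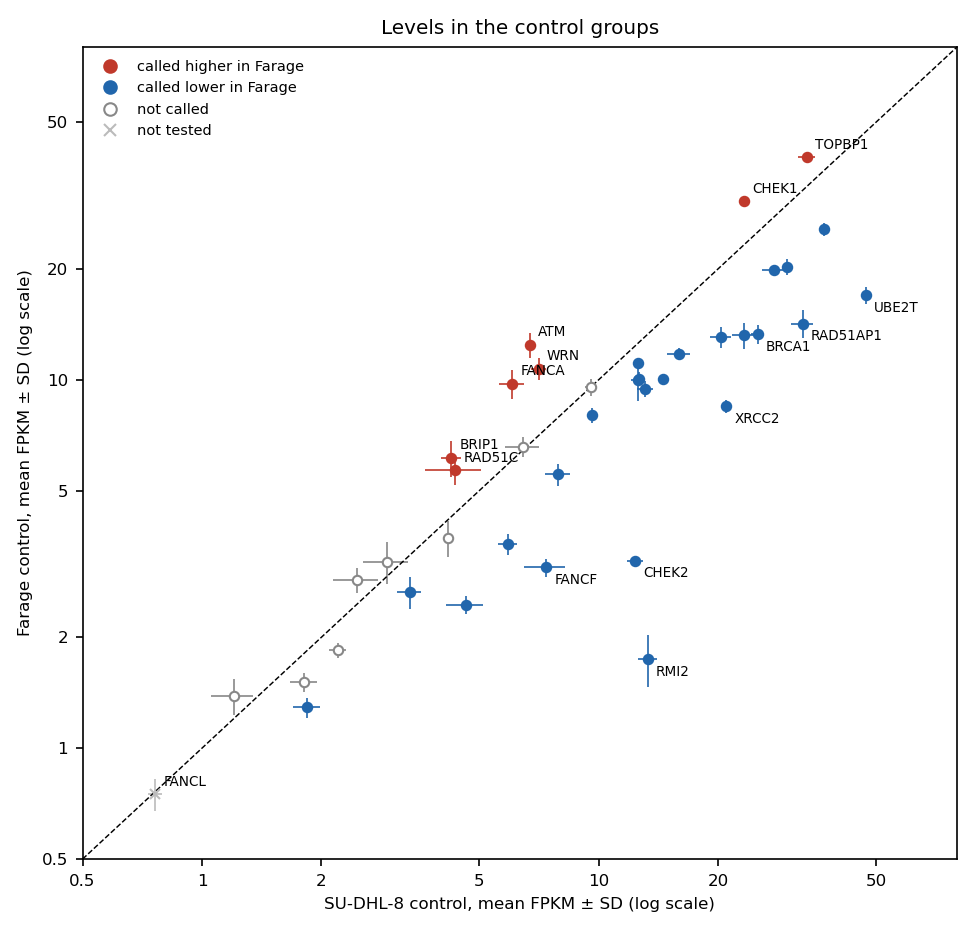
Mean FPKM of each member in Farage control libraries (vertical, log scale) against SU-DHL-8 control libraries (horizontal, log scale), with bars of ± SD (n = 3) and a dashed line of equal levels. Most members lie below the line (24 called lower in Farage against 7 called higher), with RMI2 and CHEK2 farthest below it.

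Levels per length spread widely among the members. Group means ran from 0.536 to 30.7 FPKM in Farage morusinol libraries (median 6.53), from 0.749 to 40.2 FPKM in Farage controls (median 8.96), from 0.501 to 30.3 FPKM in SU-DHL-8 morusinol libraries (median 8.36) and from 0.762 to 47.1 FPKM in SU-DHL-8 controls (median 9.60). FANCL was lowest in all 4 groups. The highest was TOPBP1 in both Farage groups, NBN in SU-DHL-8 morusinol libraries and UBE2T in SU-DHL-8 controls.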

How the data were processed

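The authors deposited 1 table of FPKM with a column for each of 12 libraries, and it was used with its own scaling. The aligner, the counter and the use of strand: not given in the sources used here. Per the submitters' processing notes the builds are GRCm38 and mm10, which are mouse builds, yet the identifiers are human, and 94.84% of them match GENCODE release 29 (GRCh38), which gave positions and exon overlaps. Columns marked n were taken as control, since no other labelled group was left for them. Depth was estimated from the steps of low values: 51.0% to 53.0% of values under 50 fragments were whole within 0.02 fragments, too few for a count test.

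Genes with at least 1 FPKM in at least 3 libraries were kept, and log2(FPKM + 1) was fitted with limma 3.58.1 (R 4.3.3), with 1 mean per group, an intensity trend, a robust prior and Benjamini-Hochberg adjustment over 17574 genes, two-sided. The script was tested on simulated data. Same-numbered libraries did not deviate together (correlations -0.0788 to 0.0331), so no pairing was used. Alternatives were another pseudocount, filters, scalings, priors, a replicate block, fits to 1 comparison and leaving out each library. The members and the lists were chosen with earlier results of these data known. Values in every library are given for up to 3 members per role with the lowest sum of p ranks over both morusinol contrasts, and for members called in opposite directions or with a called difference of at least 0.5, and for FANCL, which failed the filter. From each other list up to 3 genes with the lowest sum of p ranks could be named.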

Additional observations from a re-analysis of the deposited data

Results flagged for a closer look

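The response to morusinol differed between the lines for 17 members by the interaction test in limma, adjusted over 17574 genes. Values are the log2 change in Farage minus that in SU-DHL-8. Of these, BLM (1.29), CHEK2 (0.99), RMI2 (0.82), RMI1 (0.72), RBBP8 (0.67), UBE2T (0.60) and FANCI (0.52) were higher by over 0.5. RAD51AP1 (0.46), RAD51D (0.38), BARD1 (0.38), PALB2 (0.32), BRCA1 (0.24), NBN (0.22), CHEK1 (0.18) and TOP3A (0.15) were higher by less. ATM (-0.51) and ATR (-0.49) were lower. The difference kept its call in all 12 fits that left out 1 library for 13 of the 17, and NBN, TOP3A, BRCA1 and CHEK1 lost it in at least 1 (adjusted p up to 0.0800, 0.103, 0.0805 and 0.0597). TOP3A lost it in 10 of the 12, NBN in 9, BRCA1 in 7 and CHEK1 in 4.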

How the results depend on the processing

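Without 1 library, risen members numbered 5 to 9 in Farage and 3 to 6 in SU-DHL-8. TPM scaling gave 2 risen members in SU-DHL-8 and 1 lower member in the difference, and no low-value filter gave 5 risen in Farage. A filter of 5 FPKM, which tests fewer genes, gave 2740 genes higher in SU-DHL-8, 1922 lower in the difference and 3292 higher in Farage controls. Every change of sign in these alternatives was of a value not called. Under TPM these were RAD50 -0.0243, BRCA2 -0.0159 and FANCC -0.0765 in SU-DHL-8, XRCC2 0.0118, XRCC3 0.0109, FANCA 0.0393 and FANCE 0.0264 in the difference, and PALB2 0.0951 in controls. Under protein-coding scaling they were WRN 0.0419, TOP3A 0.00797, BARD1 0.00635 and FANCI 0.00283 in Farage, ATR 0.062 in SU-DHL-8 and PALB2 0.0598 in controls. Under median ratio scaling they were FANCC -0.017 in SU-DHL-8 and XRCC2 0.00673 in the difference. Without 1 library, ranges crossing 0 were MRE11 -0.0441 to 0.0985 and WRN -0.0704 to 0.0214 in Farage, FANCC -0.032 to 0.048 and ATR -0.0612 to 0.0611 in SU-DHL-8, BRCA2 -0.0306 to 0.0788, RAD51B -0.0598 to 0.0944, XRCC2 -0.0811 to 0.0081 and FANCM -0.0627 to 0.0698 in the difference, and PALB2 -0.0376 to 0.0268 and ATR -0.0311 to 0.0912 in controls. The cause was not tested.

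Replicate numbers are shared only as numbers. With the replicate number as a block, members higher and lower were 8 and 13 in Farage, 4 and 20 in SU-DHL-8, 11 and 2 in the difference, and 7 and 24 in controls. Depth was estimated, so no counting interval is given, and members near 1 FPKM, such as FANCL, rest on few fragments.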
